A study of Mus musculus with 21 samples.

Results

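Hnf4a binding was compared between established hepatocyte-like (iHep) cells and fibroblasts taken 48 hours after infection, using the 6 Hnf4a chromatin immunoprecipitation (ChIP-seq) libraries among the 21 samples of the series. The series has 13 peak lists and 8 inputs, and the inputs were not analysed here. Each stage has 3 such libraries, 1 from each of 3 lines, and a line here means the cells that received a particular Foxa protein together with Hnf4a. All groups started from C57BL/6 embryonic fibroblasts prepared at 13.5 days post coitum. The iHep libraries came from cells infected with Foxa1 and Hnf4alpha, with Foxa2 and Hnf4alpha, or with Foxa3 and Hnf4alpha and grown into iHep cells, and the 48-hour libraries came from fibroblasts given the same 3 pairs of retroviruses. Hnf4a was supplied by virus in every group, so neither stage is a state without added Hnf4a, and each group used here also received a Foxa protein. The labels call all of these cells mouse embryonic fibroblasts and give iHep only as a stage. Peak lists hold no expression, so whether the iHep cells carry hepatocyte markers was not tested.

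Hnf4a is a nuclear receptor that binds DNA as a homodimer and drives many hepatocyte genes, among them genes of lipid transport, bile acid synthesis and blood clotting. Foxa proteins are forkhead factors that can bind closed chromatin and act with Hnf4a in liver development. In fibroblasts both are supplied from outside, and their joint expression is a known way to convert fibroblasts into hepatocyte-like cells.

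The 6 lists held 7812 deposited Hnf4a peaks. Of these, 396 lay in 3 dense blocks of peaks on chromosomes 9, 2 and 10 and were left out, which leaves 7416. Most of those left out came from 48 hours. They were 128 of 418, 125 of 453 and 119 of 370 deposited 48-hour peaks of the Foxa1, Foxa2 and Foxa3 lines. In the iHep lists they were 8 of 1580, 11 of 2485 and 5 of 2506. The peaks left out spanned mm9 chromosome 9 from 2999897 to 3038421, chromosome 2 from 98502260 to 98507617 and chromosome 10 from 7229371 to 7237164. The files hold peak positions and a score but no read counts, so the depth of the libraries is unknown and no number of peaks can be corrected for it. The 3 lines stand as repeats of a stage although each carried a different Foxa protein, so the spread between them holds both library and line differences. With 3 lists against 3, the exact permutation test cannot give a two-sided p below 0.1, and no comparison here can pass 0.05. In bulk chromatin, a site bound in fewer cells and a site bound more weakly cannot be told apart.

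iHep cells had several times more Hnf4a peaks than cells at 48 hours. The iHep lists held 1572 peaks with Foxa1, 2474 with Foxa2 and 2501 with Foxa3, against 290, 328 and 251 peaks at 48 hours in the same order of lines. Every iHep list was longer than every 48-hour list. The mean was 2182 ± 529 peaks in iHep cells and 289.7 ± 38.5 at 48 hours (SD, n = 3 each), a ratio of 7.53, with an exact two-sided permutation p of 0.1, or 0.12 after Benjamini-Hochberg adjustment over the 6 measures tested. Within a line the iHep list was 5.42 times as long for Foxa1, 7.54 times for Foxa2 and 9.96 times for Foxa3. Leaving out the dense blocks shortened the 48-hour lists more. With the blocks kept in, the means were 2190 peaks in iHep cells and 414 at 48 hours. The peaks covered 706 ± 241 kb in iHep cells and 32.9 ± 5.36 kb at 48 hours (SD, n = 3 each), with the same exact permutation p of 0.1 (adjusted 0.12). With each list reduced to its 251 highest scoring peaks, the length of the shortest, the covered length averaged 115 kb in iHep cells and 29.5 kb at 48 hours.

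iHep peaks were also wider in base pairs. The median width was 308 bp, 361 bp and 205 bp in the iHep lists of the Foxa1, Foxa2 and Foxa3 lines, against 78 bp, 74 bp and 71 bp at 48 hours. The ranges did not overlap, and the stage means were 291 ± 79.3 bp and 74.3 ± 3.51 bp (SD, n = 3 each; exact two-sided permutation p = 0.1, adjusted 0.12). No iHep list held a peak under 150 bp, whereas 88.6%, 83.2% and 82.9% of the 48-hour peaks were under that width. Of the 48-hour peaks only 33, 55 and 43 reached 150 bp. Among peaks of at least 150 bp alone, the medians averaged 291 bp in iHep cells and 220 bp at 48 hours, the difference was 71.7 bp and the stages overlapped (exact two-sided permutation p = 0.3). At equal list length the difference was 337 bp.

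This difference in width moved with the narrowest width that each list contains. The narrowest peak was 200 bp, 272 bp and 156 bp wide in the iHep lists and 53 bp, 51 bp and 51 bp wide in the 48-hour lists. These are floors rather than single peaks, since 6.04%, 12.2% and 10.4% of the iHep peaks and 22.4%, 16.5% and 14.7% of the 48-hour peaks had exactly the narrowest width of their list. Divided by that floor, the median width was 1.54, 1.33 and 1.31 in the iHep lists and 1.47, 1.45 and 1.39 in the 48-hour lists. On this relative scale, chosen after seeing the data, the stages overlapped and the mean was slightly lower in iHep cells, at 1.39 against 1.44 (exact two-sided permutation p = 0.7). The Foxa lists of the same lines at 48 hours had floors of 326 bp, 310 bp and 334 bp, so the narrow 48-hour peaks belonged to the Hnf4a libraries and not to the Foxa libraries of that stage. How the floor came about was not given in the sources used here, and its part in the number and width of the peaks was not tested.

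**Figure D1:**
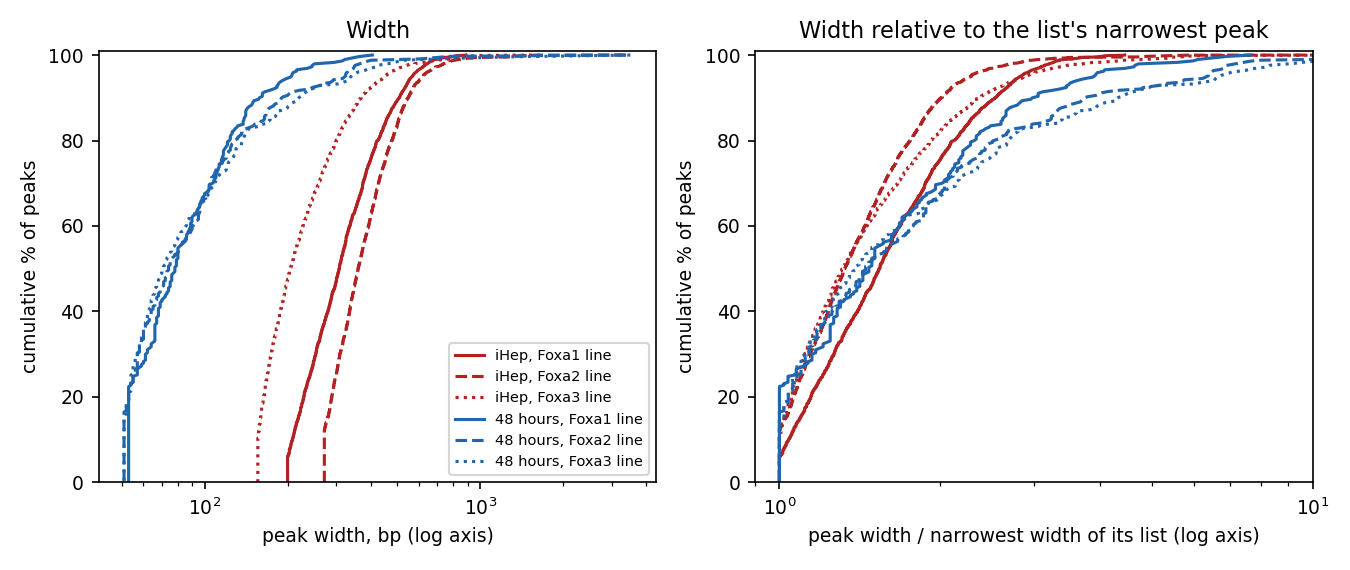
Cumulative share of Hnf4a peaks (vertical axis, %) by peak width in bp (left, log axis) and by width divided by the narrowest width of the same list (right, log axis), with 1 line per list, iHep in red and 48 hours in blue. In base pairs the 48-hour lists lie left of all iHep lists except for their few widest peaks, while on the relative scale the medians run from 1.31 to 1.54 in iHep lists and from 1.39 to 1.47 in 48-hour lists.

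The score is the authors' own value for each peak, and whether it is comparable between lists is unknown, so it is described within lists. In the order Foxa1, Foxa2, Foxa3, the iHep lists had median scores of 11.3, 13.0 and 10.2, and highest scores of 79.1, 115 and 38.3. At 48 hours the medians were 7.80, 9.02 and 14.5 and the highest scores 24.8, 45.4 and 56.0. The 48-hour lists thus ascended in both values across the Foxa1, Foxa2 and Foxa3 lines, and the iHep lists did not. Wider peaks scored higher in the iHep lists of the Foxa1 and Foxa2 lines, where Spearman's rho of width and score across the peaks of the list was 0.58 in both, and less clearly in the iHep Foxa3 line (0.20). At 48 hours rho was 0.15, 0.20 and 0.18. Peaks of a list share their library, so these values are descriptions without a test.

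The 2 stages were next compared for sites that recur in several lines, the nearest thing to a replicated site in these data. Overlapping peaks of the 3 lists of a stage were merged into sites. iHep cells had 4802 sites, of which 384 were held by all 3 lines, 856 by a pair of lines and 3562 by 1 line. At 48 hours there were 667 sites, of which 31 were held by all 3 lines, 129 by a pair of lines and 507 by 1 line. Sites in 2 or 3 lines numbered 1240 in iHep cells and 160 at 48 hours. As a share of all sites of the stage they made up 25.8% in iHep cells (95% Wilson interval 24.6% to 27.1%) and 24.0% at 48 hours (20.9% to 27.4%). The closeness of these shares depended on the peaks, the overlap rule and the lines used. With all 3 lines, the iHep and 48-hour shares were 25.8% and 37.8% for peaks of at least 150 bp. They were 25.9% and 33.0% with the dense blocks kept in, and 22.4% and 27.7% with 200 bp windows around peak centres. In the upper 50% by score they were 25.9% and 29.0%. They were closer with peaks within 500 bp joined (27.7% and 24.9%) and on autosomes alone (25.9% and 23.9%). When a match needed 50% of the narrower peak they were 22.5% and 21.1%. The recurring share was 12.9% in iHep cells and 27.5% at 48 hours without the Foxa1 line, 12.9% and 8.23% without the Foxa2 line, and 31.4% and 9.43% without the Foxa3 line.

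With every list reduced to its 251 highest scoring peaks, iHep cells had 126 recurring sites among 593 (21.2%, 18.1% to 24.7%) and the 48-hour cells 143 among 574 (24.9%, 21.5% to 28.6%). All 3 lines then held 31 sites in iHep cells and 25 at 48 hours. The intervals hold only the error of counting, and peaks that stand close together are no independent draws.

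**Figure D2:**
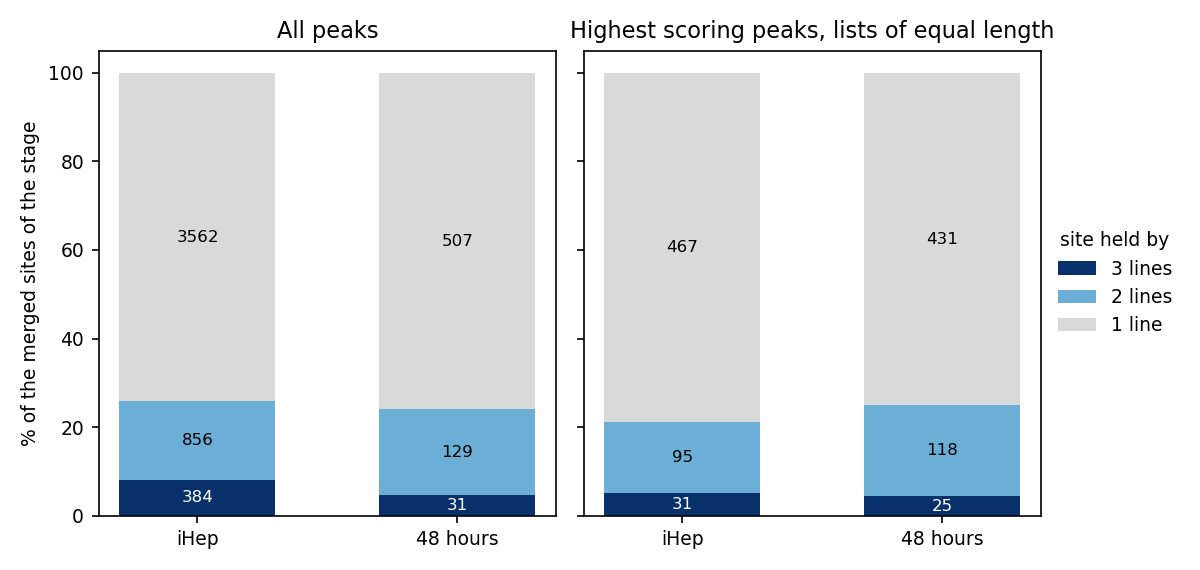
Share of the merged Hnf4a sites of a stage (vertical axis, %) held by 3, 2 or 1 of the lines, for iHep cells and 48 hours, with all peaks (left) and with each list reduced to its 251 highest scoring peaks (right). Numbers in the bars count sites. The recurring share is 25.8% in iHep cells and 24.0% at 48 hours with all peaks, and 21.2% and 24.9% at equal length.

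Different pairs of lines shared sites at each stage. In iHep cells 580 sites were held by the Foxa1 and Foxa2 lines alone, 184 by Foxa2 and Foxa3 and 92 by Foxa1 and Foxa3. At 48 hours 93 sites were held by the Foxa2 and Foxa3 lines alone, 25 by Foxa1 and Foxa2 and 11 by Foxa1 and Foxa3. At equal list length the leading pairs were still Foxa1 and Foxa2 in iHep cells, with 74 sites, and Foxa2 and Foxa3 at 48 hours, with 89. Without the Foxa3 line the recurring 48-hour sites numbered 53, and without the Foxa2 line 41. The Foxa2 and Foxa3 libraries of 48 hours carry the same title code, R209, while the 3 iHep Hnf4a libraries carry 3 different codes. The meaning of the code is not given, and code and line cannot be told apart at 48 hours.

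Recurring sites held a larger part of some lists than of others. In iHep cells 67.6% (65.2% to 69.8%) of the Foxa1 list, 46.5% (44.5% to 48.5%) of the Foxa2 list and 30.9% (29.1% to 32.7%) of the Foxa3 list lay at sites of 2 or 3 lines. At 48 hours the order of the lines was the reverse, with 23.8% (19.3% to 29.0%) for Foxa1, 47.6% (42.2% to 53.0%) for Foxa2 and 54.6% (48.4% to 60.6%) for Foxa3. The last 2 intervals overlap, so only Foxa1 stood apart at 48 hours. The shortest list of each stage, Foxa1 in iHep cells and Foxa3 at 48 hours, had the highest share. The part of list length was not tested. The iHep Foxa3 line and the 48-hour Foxa1 line were the lists of their stage with the largest share of peaks seen in no other line, 69.1% and 76.2%.

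High scoring peaks recurred more often at both stages. Each list was split by score into 4 groups of equal size, or within 1 peak of it. In the highest scoring group 90.1%, 81.2% and 45.6% of the iHep peaks (Foxa1, Foxa2, Foxa3) lay at recurring sites, against 51.1%, 20.5% and 21.1% in the lowest. At 48 hours 41.7%, 93.9% and 75.8% of the highest scoring group did, against 10.96%, 26.8% and 28.6% of the lowest. In each list the highest scoring group also had a larger median width than the lowest, and the part of width was not tested.

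The stages differed in which recurring sites scored highest. In the iHep Foxa1 list the sites of all 3 lines had the highest median score, 14.3 against 9.68 at sites of that line alone. The iHep Foxa2 list had the same order, with 19.3 against 10.9. In the iHep Foxa3 list the median was 11.4 at the sites of all 3 lines, against 9.78 at its own sites. In the iHep Foxa3 list the sites shared with Foxa1 alone had the same median, 11.4. At 48 hours the sites shared by the Foxa2 and Foxa3 lines alone had the highest median in both of their lists. Their median was 20.6 for Foxa2, against 10.6 at the sites of all 3 lines, and 21.8 for Foxa3, against 14.6. The 48-hour Foxa1 list had its highest median at the 11 sites shared with Foxa3 alone, 9.60, against 8.90 at the sites of all 3 lines.

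Each list was then compared with each of the others, by overlap of at least 1 bp. Of the 48-hour peaks of the Foxa1 line, 48.6% (42.9% to 54.4%) overlapped an iHep peak of the Foxa1 line, 60.0% (54.3% to 65.5%) one of the Foxa2 line and 27.9% (23.1% to 33.4%) one of the Foxa3 line. For the 48-hour Foxa2 line the shares were 23.5%, 36.3% and 19.8% at the iHep lists in the same order, and for the 48-hour Foxa3 line 14.7%, 29.5% and 14.7%. All 3 of the 48-hour lists thus overlapped most with the iHep list of the Foxa2 line, which has the widest peaks, and only 1 of the 3 with its own line. The order held for the Foxa2 list after the iHep lists were reduced to 1572 peaks each and all peaks were set to 200 bp around their centres, with 46.6%, 25.9% and 23.1% of the 48-hour Foxa1, Foxa2 and Foxa3 lists at it, although the first then differed little from the 44.8% at the iHep Foxa1 list. It did not hold with all 6 lists reduced to 251 peaks and set to 200 bp. The 48-hour Foxa1 list then still overlapped most with the iHep Foxa2 list (23.1%), the 48-hour Foxa2 list lay equally at the iHep Foxa2 and Foxa3 lists (7.57% each), and the 48-hour Foxa3 list lay most at the iHep Foxa3 list (8.37%). Both settings were chosen after seeing the data.

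Within the 48-hour stage the Foxa2 and Foxa3 lines shared most. Of the 48-hour Foxa3 peaks 49.8% (43.7% to 55.9%) lay at 48-hour Foxa2 peaks, against at most 29.5% at an iHep list, although the iHep lists are longer and wider. With all lists at 251 peaks of 200 bp the shares were 50.2% and at most 8.37%. The 48-hour Foxa1 list lay at 48-hour Foxa2 peaks in 19.0% (14.9% to 23.9%) and at 48-hour Foxa3 peaks in 14.8% (11.2% to 19.4%), below its shares at each iHep list. At equal length and width this order was gone. Its shares were then 19.1%, 23.1% and 8.37% at the iHep lists of Foxa1, Foxa2 and Foxa3, against 20.7% and 17.5% at the 48-hour lists of Foxa2 and Foxa3. In the other direction at most 7.19% of any iHep list lay at the peaks of a 48-hour list, and at equal length and width at most 19.1%.

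**Figure D3:**
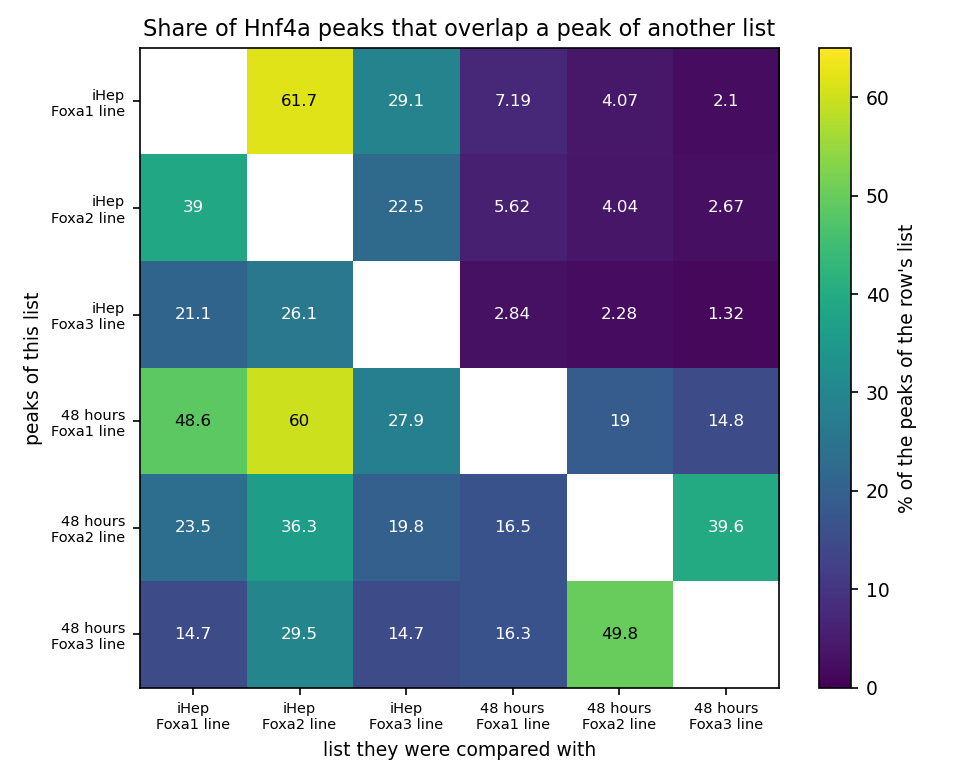
Share of the peaks of each Hnf4a list (rows, %) that overlap a peak of each other list (columns) by at least 1 bp, with iHep lists first and 48-hour lists after them. In the lower rows the largest share of the 48-hour Foxa1 list is at the iHep Foxa2 list (60.0%) and that of the 48-hour Foxa3 list at the 48-hour Foxa2 list (49.8%).

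iHep sites held by more lines more often had a 48-hour peak. A peak of any 48-hour list lay at 92 of the 384 iHep sites of all 3 lines (24.0%, 19.96% to 28.5%), at 71 of the 856 sites of a pair of lines (8.29%, 6.63% to 10.3%) and at 74 of the 3562 sites of 1 line (2.08%, 1.66% to 2.60%). With 200 bp windows around the peak centres the shares were 22.3%, 9.93% and 2.91%. These windows give every peak the same width, but a site merged from several lines can still be wider than a site of 1 line. With the Foxa1, Foxa2 or Foxa3 line left out at both stages, 10.1%, 17.5% and 13.8% of the iHep sites of both remaining lines had a 48-hour peak. The level depended on which peaks were used. With peaks of at least 150 bp alone it was 6.25% (4.24% to 9.13%) for sites of all 3 lines and 0.702% (0.476% to 1.03%) for sites of 1 line, and at equal list length 51.6% (34.8% to 68.0%) and 11.6% (8.97% to 14.8%). The share was higher at sites of all 3 lines than at sites of 1 line under each of these settings.

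The 48-hour sites found again in iHep cells depended on which line held them. An iHep peak of any line lay at 28 of the 31 sites held by all 3 lines at 48 hours (90.3%, 75.1% to 96.7%) and at 21 of the 25 held by the Foxa1 and Foxa2 lines (84.0%, 65.3% to 93.6%). Sites of the Foxa1 line alone were found again in 61.1% of cases (135 of 221, 54.5% to 67.3%). Sites of the Foxa2 line alone were found in 38.4% (66 of 172, 31.4% to 45.8%), those of the Foxa3 line alone in 22.8% (26 of 114, 16.1% to 31.3%) and those shared by the Foxa2 and Foxa3 lines in 32.3% (30 of 93, 23.6% to 42.3%). The sites shared by that pair, which had the highest scores at 48 hours, were thus found again less often than the sites of all 3 lines, with intervals that do not overlap, and their interval overlaps that of the sites of the Foxa2 line alone. With 200 bp windows the 6 shares in the same order were 83.8%, 83.3%, 57.1%, 32.4%, 22.0% and 29.7%.

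A high score at 48 hours went with less carry-over in the lists of the Foxa2 and Foxa3 lines. In the same 4 groups by score, 51.2% of each of the 3 lower groups of the Foxa2 list lay at an iHep peak of any line, against 25.6% (17.4% to 36.0%) of the highest. For Foxa3 the share was 50.8% in both lower groups, 23.8% in the next and 21.0% (12.7% to 32.6%) in the highest. For Foxa1 it was 56.2%, 68.1%, 74.0% and 66.7% from the lowest to the highest group, with intervals that overlap. Among iHep peaks the relation ran the other way in all 3 lines. In the highest scoring group 19.8%, 18.6% and 9.76% of the iHep peaks (Foxa1, Foxa2, Foxa3) lay at a 48-hour peak of any line, against 3.82%, 3.55% and 2.40% in the lowest.

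Wide 48-hour peaks were found again more often than narrow ones in each line. Of the peaks of 150 bp or more, 87.9% (72.7% to 95.2%) for Foxa1, 69.1% (56.0% to 79.7%) for Foxa2 and 60.5% (45.6% to 73.6%) for Foxa3 lay at an iHep peak of any line. Of those under 100 bp, 59.8% (52.8% to 66.4%), 35.5% (29.4% to 42.1%) and 27.9% (21.6% to 35.2%) did. A wider peak has more bases with which to overlap another, and that part was not tested.

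**Figure D4:**
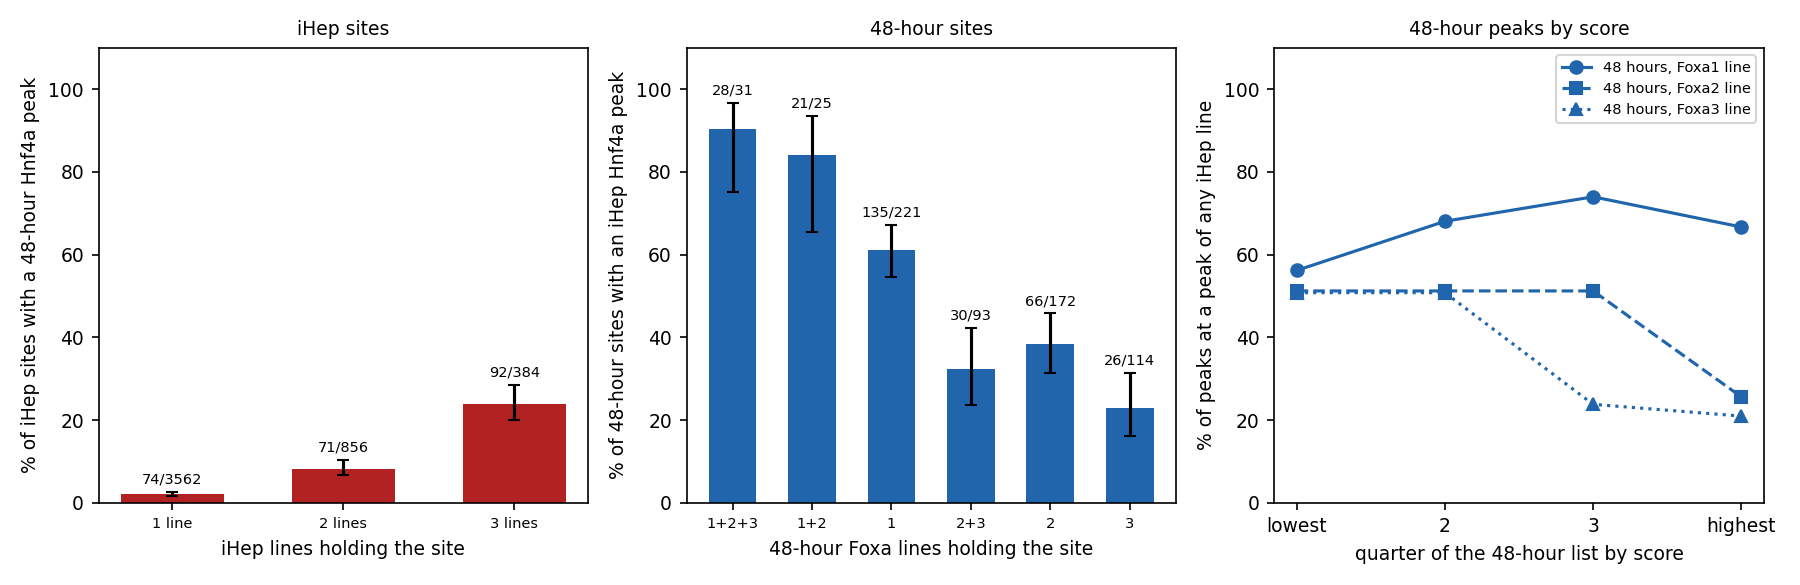
Share (vertical axes, %) of iHep Hnf4a sites with a 48-hour peak by the number of iHep lines holding them (left), of 48-hour sites with an iHep peak by the lines holding them (middle, without the 11 sites of the Foxa1 and Foxa3 lines alone), and of 48-hour peaks at a peak of any iHep line by 4 groups of the list by score (right). Bars carry 95% Wilson intervals and counts. The share is 24.0% for iHep sites of 3 lines, and in the highest scoring group at 48 hours it is 25.6% for Foxa2 and 21.0% for Foxa3.

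Merging all 6 lists gave 5155 sites. Of these 292 (5.66%) were held by all 3 iHep lists and no 48-hour list, and 3 (0.0582%) by all 3 of the 48-hour lists and no iHep list. Under the wider rule of 2 or 3 lists of a stage and no list of the other, 1077 sites (20.9%) belonged to iHep cells and 74 (1.44%) to 48 hours. With each list reduced to its 251 highest scoring peaks, which changes both length and the range of scores, 15 sites were in all 3 iHep lists alone and 17 in all 3 of the 48-hour lists alone. The part of list length in the counts was not tested apart from score. Of the 160 recurring 48-hour sites, 52 lay at a recurring iHep site (32.5%, 25.7% to 40.1%). This share was 10.5% at equal list length and 17.1%, 31.7% and 49.1% without the Foxa1, Foxa2 or Foxa3 line. Seen from the iHep side, 44 of the 1240 recurring sites lay at a recurring 48-hour site (3.55%, 2.65% to 4.73%).

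The Foxa lists of the same line and stage were set beside these sites. In the iHep Foxa2 line the Hnf4a library carries title code R242 and the Foxa2 library R215. Every other pair of Hnf4a and Foxa libraries shares its code. Whether the libraries of the iHep Foxa2 line came from the same cells is not given. A Foxa peak of the same line and stage lay at 15.5% (13.8% to 17.3%), 20.7% (19.1% to 22.3%) and 37.8% (35.9% to 39.7%) of the iHep Hnf4a peaks of the Foxa1, Foxa2 and Foxa3 lines, against 14.1% (10.6% to 18.6%), 11.6% (8.56% to 15.5%) and 3.19% (1.62% to 6.16%) at 48 hours. The stages did not overlap, although the iHep Foxa1 line was only 1.32 percentage points above the 48-hour Foxa1 line. The means were 24.6 ± 11.7% and 9.64 ± 5.73% (SD, n = 3 each; exact two-sided permutation p = 0.1, adjusted 0.12). Without the Foxa3 line the difference between the means was 5.19 percentage points, and with the dense blocks kept in it was -9.69, the opposite direction. The Foxa lists also differed in length, from 3432 to 12661 peaks in iHep cells and from 5664 to 6819 at 48 hours.

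The relation of recurrence to Foxa differed in direction between 2 iHep lists. In the iHep Foxa2 line 25.6% of the peaks at recurring sites (23.1% to 28.2%) lay at a Foxa2 peak, against 16.4% (14.5% to 18.5%) of those in that line alone. In the iHep Foxa3 line 17.6% of the peaks at recurring sites (15.1% to 20.4%) lay at a Foxa3 peak, against 46.8% (44.5% to 49.2%) of those in that line alone. In the iHep Foxa1 line the shares were 15.9% and 14.5%, with intervals that overlap.

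Of all 5155 sites, 34.9% (33.6% to 36.2%) lay at an iHep Foxa peak of any line and 19.6% (18.6% to 20.7%) at a 48-hour Foxa peak of any line. The sites of 48 hours alone, both recurring and of 1 line, lay below both shares, and the other classes given here did not. An iHep Foxa peak of any line lay at 42.5% (36.9% to 48.2%) of the 292 sites of all 3 iHep lists and no 48-hour list, and a 48-hour Foxa peak of any line at 23.6% (19.1% to 28.8%). Of the 74 recurring sites of 48 hours alone, 2 lay at an iHep Foxa peak (2.70%, 0.744% to 9.33%) and 1 at a 48-hour Foxa peak (1.35%, 0.239% to 7.27%). Of these 74 sites, 63 were held by the Foxa2 and Foxa3 lines. The 280 sites of 48 hours alone held by 1 line were low too. An iHep Foxa peak lay at 5.71% of them (3.55% to 9.08%) and a 48-hour Foxa peak at 13.9% (10.4% to 18.5%). The 236 sites with Hnf4a peaks at both stages lay at iHep Foxa peaks in 36.9% of cases (31.0% to 43.2%) and at 48-hour Foxa peaks in 32.6% (27.0% to 38.8%). The classes differ in width, and the part of width in these shares was not tested. Median widths were 592 bp for the sites of all 3 iHep lists alone and 549 bp for the sites of both stages. They were 66 bp for all sites of 48 hours alone and 90.5 bp for the recurring ones.

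Peaks stood close together in different lists at each stage. In the iHep lists of the Foxa1, Foxa2 and Foxa3 lines 4.45%, 8.29% and 40.3% of the peaks had another peak of the list within 2 kb, against 33.1%, 30.5% and 24.7% at 48 hours. The iHep Foxa3 line lay above all 48-hour lists and the other iHep lines below them. Most of the close 48-hour peaks stood within 500 bp of another. The shares within 500 bp were 32.8%, 29.3% and 22.7% at 48 hours and 1.91%, 2.67% and 30.9% in iHep cells. How many close peaks are parts of 1 site was not tested. The means were 17.7 ± 19.7% and 29.4 ± 4.30% (SD, n = 3 each; exact two-sided permutation p = 0.4, adjusted 0.4). Without the Foxa1 line the difference was -3.30 percentage points and without the Foxa3 line -25.4. At equal list length no iHep list lay above a 48-hour list, with 0%, 0.797% and 12.4% in the iHep lists and 31.1%, 29.9% and 24.7% at 48 hours, a difference of -24.2 points (exact two-sided permutation p = 0.1). With the dense blocks kept in, the difference was -32.7 points (exact permutation p = 0.1). With peaks of at least 150 bp alone the direction turned round, at 17.7% in iHep cells and 13.2% at 48 hours (exact two-sided permutation p = 0.9). The Foxa3 library of the same iHep line, which carries the same title code R170, also had close peaks, with 66.1% within 2 kb of another, against 3.38% and 8.68% in the iHep Foxa1 and Foxa2 lists.

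Chromosome X held a small share of the Hnf4a peaks of each list. Its share was 1.27% (0.825% to 1.957%), 2.22% (1.71% to 2.88%) and 0.240% (0.110% to 0.522%) in the iHep lists of the Foxa1, Foxa2 and Foxa3 lines, against 1.72% (0.739% to 3.97%), 3.66% (2.11% to 6.28%) and 5.18% (3.05% to 8.66%) at 48 hours. The share was lower in iHep cells in each line, but the stages overlapped, and the value of the iHep Foxa3 line rests on 6 peaks. In the Foxa lists the share was 1.81%, 2.29% and 1.45% in iHep cells and 1.64%, 1.61% and 1.77% at 48 hours, in the same order. The Hnf4a share was below that of the Foxa list in each iHep line and above it in each 48-hour line. The Hnf4a interval held the Foxa value in the Foxa1 line of both stages and in the iHep Foxa2 line.

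**Figure D5:**
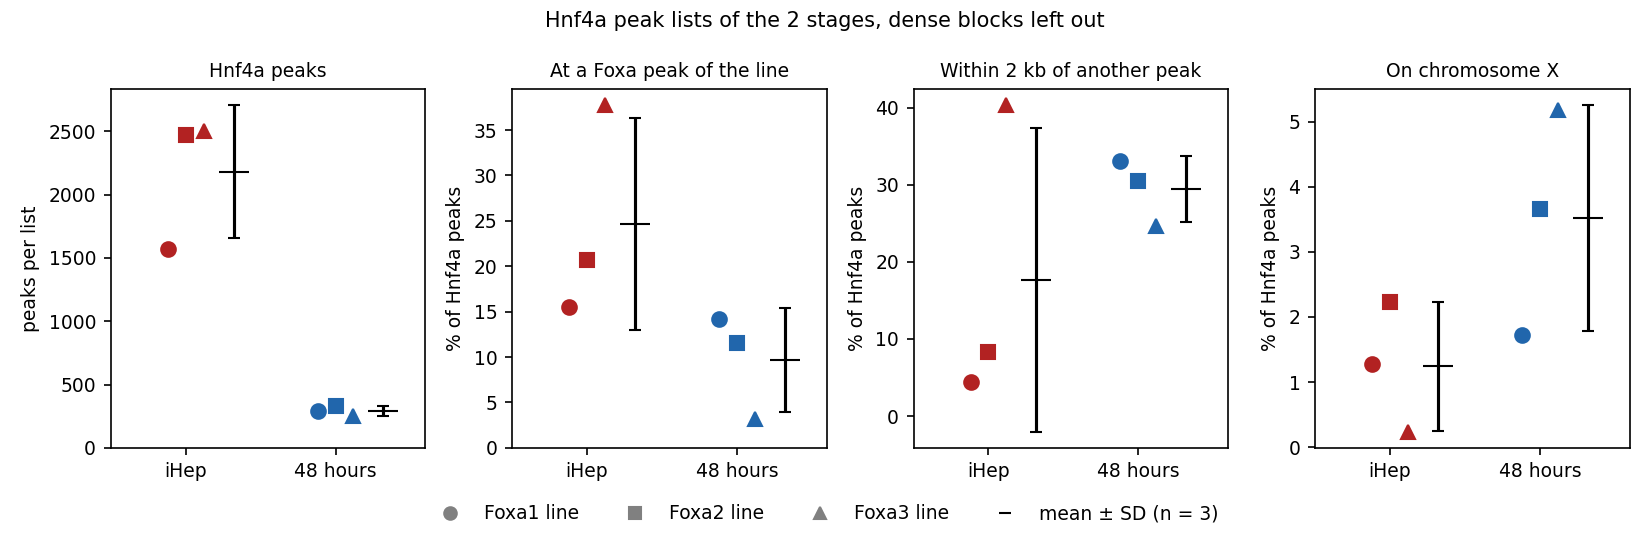
Peaks per Hnf4a list and the shares of its peaks at a Foxa peak of the line, within 2 kb of another peak of the list and on chromosome X (vertical axes, number or %), for iHep cells and 48 hours. Symbols are the 3 lines and black marks the mean ± SD (n = 3). The number of peaks and the share at Foxa peaks do not overlap between the stages, while the other shares do.

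The individual sites below are given as mm9 positions, counted from 1, since no annotation of that build was used and no gene was assigned. Among the 292 sites of all 3 iHep lists and no 48-hour list, the best summed rank by score belonged to a site on chromosome 2 from 38341207 to 38341867. It scored 26.6, 80.6 and 21.3 in the iHep lists of the Foxa1, Foxa2 and Foxa3 lines and ranked 59, 3 and 49 in them. It overlapped no Foxa peak of any list. The next sites lay on chromosome 14 from 66707988 to 66708558, chromosome 11 from 115738340 to 115739110, chromosome 19 from 4816801 to 4817517 and chromosome 9 from 57495256 to 57496261. Of these 5 only the chromosome 14 site overlapped a Foxa peak, from the iHep Foxa3 list.

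The 3 sites of all 48-hour lists and no iHep list were short. They lay on chromosome 9 from 95326361 to 95326417, on chromosome 6 from 103264617 to 103264696 and on chromosome 4 from 70039170 to 70039274, with widths of 57 bp, 80 bp and 105 bp. The first scored 17.1, 15.7 and 17.2 in the 48-hour lists of the Foxa1, Foxa2 and Foxa3 lines, where it ranked 4, 73 and 111. None of the 3 overlapped a Foxa peak.

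All 6 lists held 12 sites, of 600 to 969 bp. The one with the best summed rank, on chromosome 6 from 85087100 to 85087841, scored 49.6, 41.3 and 33.4 in the iHep lists of the Foxa1, Foxa2 and Foxa3 lines and ranked 2, 73 and 6 there. At 48 hours it scored 11.6, 11.7 and 10.9 and ranked 28, 103 and 145. Its widest peak in each list was 560 bp, 719 bp and 386 bp in iHep cells and 157 bp, 244 bp and 130 bp at 48 hours, so the 48-hour peaks filled part of the iHep site. Others were chromosome 6 from 120404538 to 120405178, chromosome 16 from 34861900 to 34862868, chromosome 13 from 24287020 to 24287763, chromosome 19 from 56622315 to 56623279, chromosome 1 from 134953942 to 134954746 and chromosome 8 from 97395204 to 97396072. The remaining ones are chromosome 2 from 181747428 to 181748083, chromosome 6 from 99761200 to 99762005, chromosome 16 from 52333570 to 52334169, chromosome 14 from 77081381 to 77082199 and 1 site on chromosome 18. An iHep Foxa peak of any line lay at 6 of the 12 (interval 25.4% to 74.6%), and this interval holds the 34.9% of all 5155 sites. A 48-hour Foxa peak of any line also lay at 6 of the 12, with the same interval, against 19.6% of all 5155 sites. The median width was 774.5 bp for the 12 sites and 294 bp for all sites, and the part of width was not tested.

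The highest scoring peaks of the 2 stages lay at unlike sites. The top peak of the iHep Foxa1 and Foxa2 lists was on chromosome 5, where the Foxa2 peak ran from 9040692 to 9041433 and scored 115, and that of the iHep Foxa3 list on chromosome 4 from 141115501 to 141116691 with a score of 38.3. Both sites held peaks of all 3 iHep lists and of the 48-hour Foxa1 list, and of no other 48-hour list. At 48 hours the top peak was chromosome 1 from 41912963 to 41913023 in the Foxa1 line, 61 bp wide with a score of 24.8, and it overlapped no other Hnf4a list. The top peak of the 48-hour Foxa2 line, on chromosome 1 from 169270419 to 169270505 with a score of 45.4, and that of the Foxa3 line, on chromosome 17 from 7146225 to 7146408 with a score of 56.0, overlapped each other's list and no iHep list. None of these 3 peaks of 48 hours overlapped a Foxa peak. The chromosome 5 site overlapped Foxa peaks of the iHep Foxa1 and Foxa2 lists and of the 48-hour Foxa1 list, and the chromosome 4 site none.

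The widest peak of the iHep Foxa1 list was 888 bp, on chromosome 1 from 138124654 to 138125541, and was shared by all 3 iHep lists and the 48-hour Foxa1 list. That of the iHep Foxa3 list was 1646 bp, on chromosome 5 from 143577031 to 143578676, and was in no other Hnf4a list. The widest peak of the 48-hour Foxa1 list was 406 bp, from 181747514 to 181747919 within the chromosome 2 site of all 6 lists. The widest peaks of the other 3 lists lay at 1 site on chromosome 17, from 39979954 to 39983479.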

How the data were processed

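The peak lists were used as the authors deposited them, 1 list per ChIP sample, with chromosome, start, end, name and a score in the authors' own unit whose formula was not given in the sources used here. BWA 0.6.2, MACS2 2.1.0, bedtools 2.16.2 and mm9 are named, per the submitters' processing notes, without a role for each; the use of inputs was not given there either. The members and the measures were chosen with earlier results of these data known. Peaks overlapping the dense blocks were removed. Sites are merged peaks that overlap by at least 1 bp; shares carry 95% Wilson intervals. Regions were named by summed rank of score: the 5 best of each set limited to a stage, up to 15 held by all lists, and the top and widest peak of each list. Stages were compared by the exact permutation test over the 6 lists, two-sided, for 6 measures with Benjamini-Hochberg adjustment. Replicate numbers are the Foxa lines. The 48-hour and iHep libraries of a line carry different title codes and nothing says that they share a culture, so lines were not treated as pairs. With the dense blocks left out, 1 of the 3 48-hour lists overlapped best with its own iHep line. That order changed at equal length and width and does not settle whether lines are pairs. Overlap and merging were tested on simulated data. Alternatives are given in the closing section. The genome sequence, genes and motifs were not analysed here. Python 3.11.15, NumPy 2.4.6, pandas 2.3.3 and matplotlib 3.10.9 were used.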

Additional observations from a re-analysis of the deposited data

Results flagged for a closer look

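A pair of measures changed in opposite directions between the stages in different lines. With 1 library per line and stage, the difference between lines was not tested. The share of peaks within 2 kb of another peak differed between iHep cells and 48 hours by -28.7 percentage points for Foxa1 and -22.2 for Foxa2, and was 15.6 points higher in iHep cells for Foxa3. The median width in multiples of the narrowest peak of the list was higher in iHep cells by 0.0683 for Foxa1 and differed by -0.124 for Foxa2 and by -0.0781 for Foxa3.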

How the results depend on the processing

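Of 165 values under alternatives, 122 kept their direction or stayed near the reported value, 40 moved and 3 turned round. With the dense blocks kept in, recurring 48-hour sites numbered 262, 49.6% of them lay at recurring iHep sites, and the difference in the share at Foxa peaks was -9.69 percentage points. In the upper 50% by score, recurring sites numbered 631 in iHep cells and 94 at 48 hours, 135 sites were in all 3 iHep lists alone, 12.8% of recurring 48-hour sites lay at recurring iHep sites, and mean median scores were 15.1 and 15.7. At equal length there were 126 recurring iHep sites, 15 sites in all iHep lists alone and 17 in all 48-hour lists alone. Of the recurring 48-hour sites 10.5% then lay at recurring iHep sites, and the mean median score of the iHep lists was 24.6. With peaks of at least 150 bp, the difference in close peaks was 4.51 percentage points, 34 sites recurred at 48 hours, 0 were in all 48-hour lists alone and the mean median score at 48 hours was 15.4. That last class held 6 sites with centres within 200 bp or with 200 bp windows. The relative width differed by -0.0445. Leaving out 1 line at a time, and then counting sites of both remaining lines, gave 458 to 965 recurring sites in iHep cells, 41 to 123 at 48 hours, 378 to 832 sites of iHep lists alone, 8 to 66 of 48-hour lists alone and 17.1% to 49.1% of recurring 48-hour sites at recurring iHep sites. The cause was not tested; fewer peaks or lines are part of most of these settings. With the line as a replicate block the difference in peak number stayed 1893 with an exact sign-flip p of 0.25, the smallest that 3 pairs allow, and no call changed.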

Other observations

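Several 48-hour peaks could lie within 1 iHep site. Of the iHep sites with a 48-hour Hnf4a peak, 35 of 154 held 2 or more peaks of the Foxa1 line, 22 of 121 held 2 or more of the Foxa2 line and 12 of 79 held 2 or more of the Foxa3 line, and these hold 25.5%, 14.6% and 9.96% of the 48-hour lists. With peaks within 500 bp joined, the lists held 1557, 2439 and 2066 peaks in the iHep Foxa1, Foxa2 and Foxa3 lines, against 240.0, 276 and 221 at 48 hours.

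The widest peaks of the 48-hour Foxa2 and Foxa3 lists, 3515 bp and 3526 bp, and of the iHep Foxa2 list, 3421 bp, lay at the same site on chromosome 17 from 39979954 to 39983479. The iHep Foxa3 list held 3 peaks there, neither Foxa1 list held one, and the 48-hour Foxa2 list was the only Foxa list with a peak at it.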
